A study of Canis lupus familiaris with 8 samples.

Results

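The comparison set the MDCK wells numbered 3 and 4 against the wells numbered 1 and 2. Of the 8 wells of the series, 4 made up each set: control replicates 1 and 2 with stretch replicates 1 and 2 (called wells 1 and 2), and control replicates 3 and 4 with stretch replicates 3 and 4 (called wells 3 and 4). Each set thus held 2 control and 2 stretch wells, and the effect of stretch was a term in the model. Of all tested genes 9.83% were higher in wells 3 and 4 and 8.54% lower. The higher share was larger among ribosome biogenesis genes (21 of 36), MAPK output genes (10 of 20) and wound-edge genes (9 of 29), and the lower share among DNA replication genes (27 of 38), chaperones (14 of 27), interferon-stimulated genes (14 of 28) and oxidative stress response genes (10 of 29).

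All wells held MDCK GII, a polarised dog kidney epithelial line, grown overnight as a monolayer on a collagen-coated silicone membrane in medium with fetal bovine serum. Control wells stood over a flat base, whereas in stretch wells suction drew the membrane over a central pillar and held it at 18% equibiaxial strain for 2 h before lysis. The labels call the 4 wells of a treatment technical replicates that were spread at random over several devices, so p-values measure the spread between wells of one line, which may be technical. The labels do not say what a replicate number stands for, and device, day, seeding and lysis cannot be told apart as sources of the division. It was first noticed as the main axis of these same counts, so the p-values below rank and describe genes and do not establish that the sets differ.

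In epithelial cells, ligands shed from the cell surface bind EGFR, and RAS, MEK and ERK pass the signal to transcription factors such as the ETS and AP-1 families. ERK output is read in the transcripts of its own inhibitors, the Sprouty, SPRED and DUSP proteins, which are made when the pathway is active. Growth signals also raise D-type cyclins and MYC, which drive ribosome production and entry into S phase, while dense, quiescent epithelium is known for low YAP/TAZ activity and primary cilia, and FOXO factors act when growth signals are low.

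The 8 libraries held 27047358 to 32478887 counts, with no detectable difference between the sets in total (two-sided exact permutation p = 0.143). Tested genes were split by exon length into 3 equal parts, and the longest took 31.4 ± 0.255% in wells 1 and 2 and 32.5 ± 0.372% of the counts in wells 3 and 4 (mean ± SD, n = 4 each), and the ranges did not overlap (exact permutation p = 0.0286, the smallest possible, adjusted p = 0.157 over the library measures). The 10 most abundant genes took 4.95 ± 0.082% and 4.72 ± 0.0879%, again without overlap (exact permutation p = 0.0286, adjusted p = 0.157). All 15 kidney epithelium markers had a mean above 1 CPM (counts scaled to library size, TMM-normalised CPM) in both sets, including E-cadherin (CDH1). CDH16 (1.54 and 1.38 CPM) and EMX2 (1.33 and 1.44 CPM) were low, and CDH16 measured 0.668 CPM in its lowest well. Of 10 fibroblast markers 6 had no count in any well, among them COL1A2 and DCN, and their summed level was 3.23 to 4.23 CPM in wells 1 and 2 and 1.83 to 3.91 CPM in wells 3 and 4. Endothelial markers (3 of 10 at 0, CDH5 with at most 2 counts) summed to 12.1 to 14.6 and 10.2 to 12.6 CPM, and leukocyte markers (5 of 10 at 0, PTPRC among them) to 6.46 to 7.35 and 5.85 to 7.35 CPM. Each of these 3 sums was mostly 1 gene, so they do not measure amounts of the cell types. The genes were PDGFRA (means 3.60 and 2.82 CPM), EGFL7 (11.3 and 9.42 CPM) and CD14 (6.23 and 5.86 CPM). In such bulk libraries fewer cells of a type and less RNA per cell cannot be told apart.

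Of 14804 genes tested, 1455 were higher in wells 3 and 4 (9.83%) and 1264 were lower (8.54%), 18.4% in all (edgeR quasi-likelihood test, Benjamini-Hochberg adjusted p under 0.05). The differences were mostly small, with a median log2 difference of 0.26 among the higher genes and -0.26 among the lower. Only 228 of the 2719 called genes differed by at least 1.5-fold, 89 of them higher and 139 lower, and 58 by at least 2-fold. In 3000 genes (20.3%) the 4 wells of one set all lay beyond the 4 of the other, and 2092 of these were also called. In the same model the stretch term was called for 66 genes (0.446%), 33 of which were also called for the set. Among the longest of the 3 length classes 771 were higher and 405 lower, against 213 and 389 among the shortest. With offsets for gene length the count was 2574, of which 2353 were among the 2719. The count rested in part on replicate 1: it was 1732 without control replicate 1, 1735 without stretch replicate 1 and 777 without both, and it was 1661 without both wells of replicate 3.

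**Figure D1:**
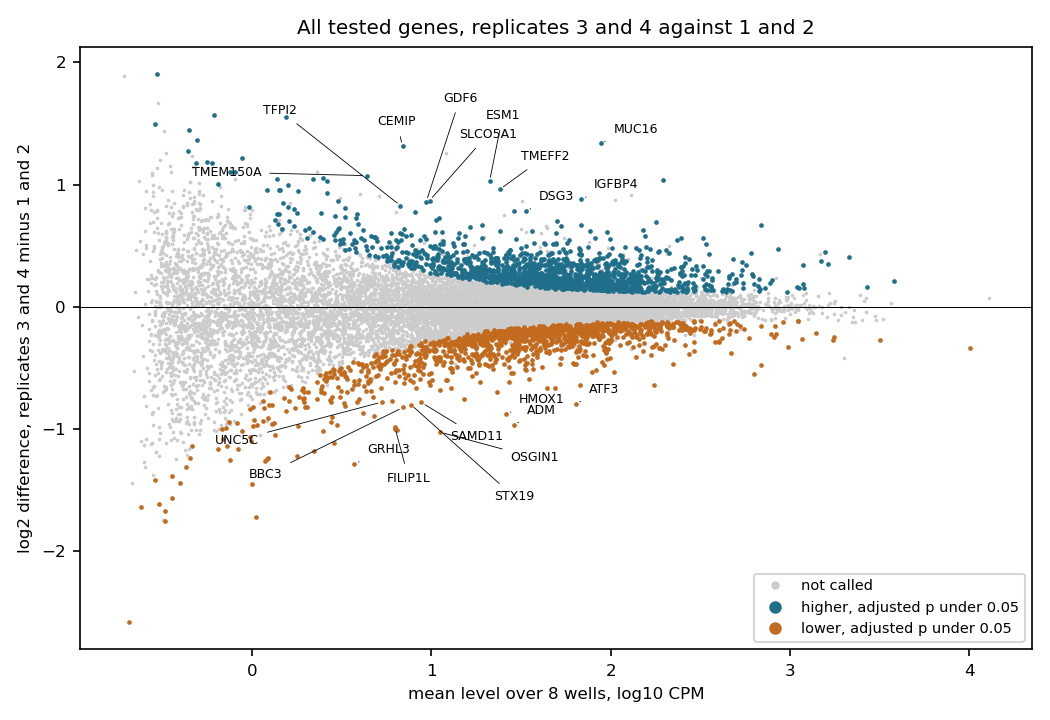
Each point is 1 of 14804 tested genes, with its mean level over the 8 wells (log10 CPM) on the x axis and its log2 difference between the sets on the y axis. The 1455 higher and 1264 lower genes (adjusted p under 0.05) lie mostly within 1 log2 unit of 0, and the labelled genes are the 10 largest rises and 10 largest falls among genes with a symbol, at least 5 CPM in the higher set and sets that do not overlap.

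Stretch replicate 2 lay between the sets. On the first principal component of the 1000 most variable genes, which held 26.99% of the variance, its score was -0.68, while the other wells of its set scored -14.88 to -8.33 and wells 3 and 4 scored 5.49 to 16.79. The sets accounted for 76.8% of the variance of that component, and stretch for 73.8% of that of the second, which held 16.0%. Without stretch replicate 2 the count of called genes was 2836.

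The largest rise among well-expressed genes with separated wells was that of MUC16, a large cell-surface mucin (chromosome 20, 52170387 to 52282686). In the order control then stretch within each set, which is kept below, it measured 35.3, 59.0, 42.8 and 62.4 CPM in wells 1 and 2 and 144, 119, 111 and 131 CPM in wells 3 and 4. Every well of the second set held more than 1.5 times the highest of the first, with a log2 difference of 1.34 ± 0.220 (SE; adjusted p = 0.0140). CEMIP, which takes part in hyaluronan breakdown (chromosome 3, 57204384 to 57343326), measured 3.01, 4.11, 3.85 and 4.84 CPM in wells 1 and 2 and 10.8, 6.94, 10.98 and 10.7 CPM in wells 3 and 4. All wells of the second set were higher, although control replicate 4 was the lowest of them, with a log2 difference of 1.31 ± 0.142 (SE; adjusted p = 2.23e-06). TMEFF2, a transmembrane protein with EGF-like and follistatin-like domains (chromosome 37, 2292309 to 2514442), measured 17.8, 14.5, 17.1 and 16.1 CPM in wells 1 and 2 and 31.8, 30.7, 32.3 and 32.8 CPM in wells 3 and 4. Its wells fell into 2 tight groups irrespective of stretch, with a log2 difference of 0.96 ± 0.0709 (SE; adjusted p = 4.62e-09).

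TMEM150A, the proteoglycan gene ESM1, IGFBP4 (an IGF-binding protein), the transporter gene SLCO5A1, GDF6 (a BMP-family ligand), the protease inhibitor gene TFPI2 and DSG3, a desmosomal cadherin, completed the 10 largest rises. Their log2 differences were 1.07, 1.03, 0.88, 0.87, 0.86, 0.83 and 0.78. Several of these calls depended on single wells. That of MUC16 was lost without stretch replicate 1, and that of DSG3 without control replicate 2, stretch replicate 1 or stretch replicate 3. IGFBP4 lost its call without any 1 of control replicates 1 and 2 and stretch replicates 1 and 3, and ESM1 without any 1 of 6 wells.

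GRHL3, a transcription factor of epithelial differentiation, gave the largest fall among genes of at least 5 CPM in the higher set whose sets did not overlap (chromosome 2, 74685914 to 74719947). It measured 5.18, 5.18, 6.39 and 4.40 CPM in wells 1 and 2 and 1.89, 2.43, 2.48 and 1.89 CPM in wells 3 and 4. The sets did not overlap at this low level, with a log2 difference of -1.28 ± 0.164 (SE; adjusted p = 9.08e-06). OSGIN1, a growth inhibitor gene induced by oxidative stress (chromosome 5, 68842573 to 68876492), measured 14.9, 12.2, 16.3 and 16.2 CPM in wells 1 and 2 and 5.29, 7.31, 7.71 and 9.02 CPM in wells 3 and 4. Each value of the second set lay under each of the first, with a log2 difference of -1.03 ± 0.108 (SE; adjusted p = 8.87e-07). ADM encodes the peptide adrenomedullin, a hypoxia-responsive gene, and measured 45.3, 38.7, 39.1 and 30.1 CPM in wells 1 and 2 and 18.6, 20.9, 18.8 and 19.7 CPM in wells 3 and 4. Wells 3 and 4 were close to each other and all below wells 1 and 2, with a log2 difference of -0.97 ± 0.0865 (SE; adjusted p = 1.74e-06).

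The other large falls were those of FILIP1L (-0.99), HMOX1 (-0.88; the haem oxygenase), BBC3 (-0.83; the pro-apoptotic protein PUMA), the syntaxin gene STX19 (-0.80), ATF3 (-0.79; described with the immediate-early genes), SAMD11 (-0.78) and the netrin receptor gene UNC5C (-0.78), all on the log2 scale. No call among these 10 falls was lost when any single well was left out. The library kit kept strand, but whether counting used it is not given in the sources used here, so reads of genes overlapping on opposite strands may not be separated. This touches 48 of the 143 genes named by rule, among them GRHL3, OSGIN1, FILIP1L, BBC3, STX19, ATF3, SAMD11, UNC5C, IGFBP4, TMEM150A and, below, KCNN4, ETV4, NOP2, FHL2, LAMB3, HSP90B1 and IFT81.

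MAPK output genes were higher in wells 3 and 4 in 10 of 20 tested members (50.0%, against 9.83% of all genes) and lower in 0, with a median log2 difference of 0.47 beside -0.01 over all genes. DESeq2 and limma-voom also called 0 lower members of the lists for which 0 are given here, MAPK outputs, SRF/MRTF and wound-edge genes, and edgeR gave 0 in these at an unadjusted p under 0.05. KCNN4, a calcium-activated potassium channel, measured 18.6, 19.3, 20.9 and 26.8 CPM in wells 1 and 2 and 42.0, 32.8, 37.0 and 34.4 CPM in wells 3 and 4. The sets were apart in every well, with stretch replicate 2 the highest of the first set, and the log2 difference was 0.78 ± 0.114 (SE; adjusted p = 0.00118). The ETS factors ETV1 (0.35), ETV4 (0.52) and ETV5 (0.37), the RAS-ERK inhibitors SPRY1 (0.39), SPRY4 (0.93), SPRED2 (0.18) and SPRED3 (0.52), the adaptor SH2B3 (0.48) and cyclin D1 (CCND1, 0.46) were the other members that rose. The feedback inhibitor SPRY4 rested on few reads: 19, 46, 48 and 96 counts in wells 1 and 2 and 104, 73, 114 and 124 in wells 3 and 4. Here stretch replicate 2 lay among wells 3 and 4, and the call was lost on leaving out any 1 of 7 wells (not stretch replicate 2). That of CCND1 was lost without control replicate 1, stretch replicate 1 or stretch replicate 3.

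The 10 members that missed the threshold also had estimates above 0, but LGALS3 (0.03), SPRED1 (0.04) and EPHA4 (0.10) were close to it. In control wells and stretch wells fitted alone, 17 of 20 members had the same sign. DUSP6, the ERK phosphatase, measured 51.6, 72.0, 77.4 and 125 CPM in wells 1 and 2 and 105, 90.2, 133 and 117 CPM in wells 3 and 4. Control and stretch wells of the second set were above the matching wells of the first, except that stretch replicate 2 was above stretch replicate 4, and the log2 difference was 0.48 ± 0.208 (SE; adjusted p = 0.195). The values for EPHA2, a receptor induced by ERK, were 0.50 (adjusted p = 0.0915) and for DUSP5 0.87 (adjusted p = 0.0538). Without stretch replicate 2, DUSP6 and EPHA2 passed the threshold and the list held 15 higher members. Without control replicate 1 or stretch replicate 1 it held 5, and without control replicate 3 or stretch replicate 3 it held 6. Without both wells of replicate 1 it held 2, without both of replicate 3 it held 3 and without both of replicate 4 it held 5.

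**Figure D2:**
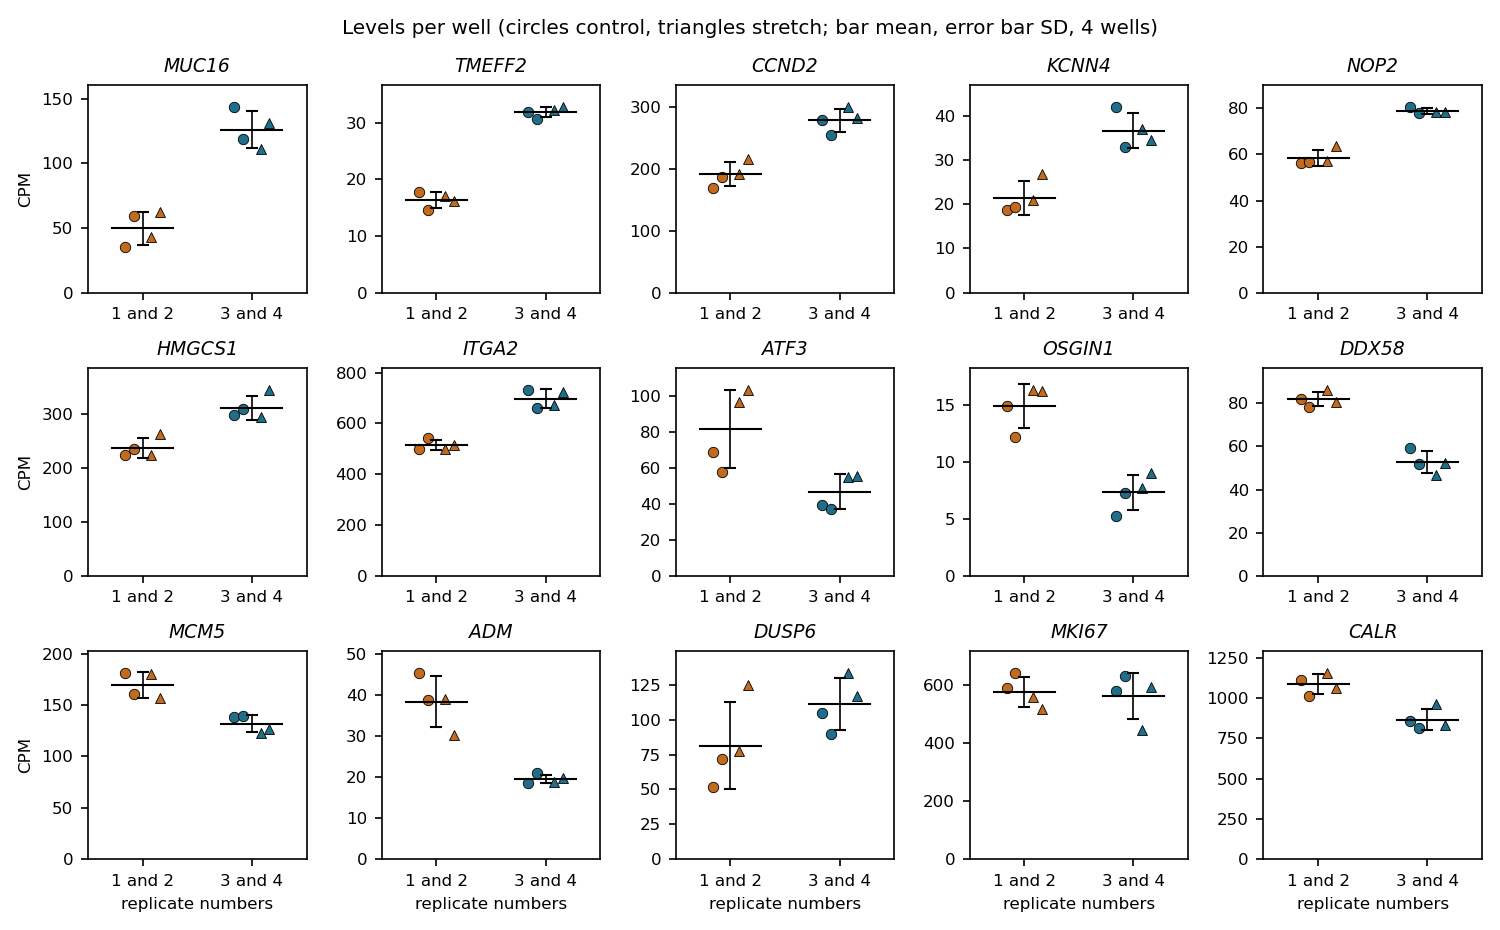
Each panel plots the level of 1 gene in CPM (y axis, from 0) for the 4 wells numbered 1 and 2 and the 4 numbered 3 and 4 (x axis), circles for control and triangles for stretch wells, with the mean as a bar and the SD as an error bar. The wells of MUC16, TMEFF2, CCND2, KCNN4, NOP2, HMGCS1 and ITGA2 are higher in the second set and those of ATF3, OSGIN1, DDX58, MCM5, ADM and CALR lower, while the sets overlap for DUSP6 and MKI67.

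Among EGFR ligands, receptors and sheddases, 3 of 19 tested members were higher (15.8%, against 9.83% of all genes) and 1 lower (5.26%, against 8.54%). The neuregulin gene NRG1 (0.16), CBL (0.24), the ubiquitin ligase that removes activated EGFR, and RHBDF2 (0.27), a partner of the sheddase ADAM17, rose by small amounts, and the receptor gene ERBB3 fell (-0.17). The ligand gene EREG measured 13.3, 16.7, 24.8 and 37.7 CPM in wells 1 and 2 and 42.0, 25.6, 50.1 and 44.5 CPM in wells 3 and 4. Stretch replicate 2 exceeded control replicate 4, so the sets overlapped, and the log2 difference was 0.86 ± 0.253 (SE; adjusted p = 0.0780). EGFR itself gave 0.13 (adjusted p = 0.170), HBEGF 0.20 (adjusted p = 0.367), ADAM17 0.01 and ADAM10 0.07. Without stretch replicate 2 the higher members numbered 7, EREG and HBEGF among them, and without stretch replicate 4 they numbered 5. NRG1 lost its call without control replicate 1 or 3 or stretch replicate 1 or 3, and RHBDF2 without control replicate 2, 3 or 4.

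Of 35 tested immediate-early genes 3 were higher (8.57%) and 4 lower (11.4%), shares near the 9.83% and 8.54% of all genes. ATF3, a stress-induced bZIP factor (chromosome 7, 10637865 to 10648720), measured 68.8, 57.8, 96.4 and 103 CPM in wells 1 and 2 and 39.3, 37.3, 54.7 and 55.4 CPM in wells 3 and 4. Within each set both stretch wells exceeded both control wells, and within each treatment both wells of the second set were lower. The log2 difference was -0.79 ± 0.0570 (SE; adjusted p = 4.62e-09), and the stretch term was 0.59 ± 0.0569 (SE; adjusted p = 2.74e-06). JUN fell (-0.40), as did JUND (-0.22) and the nuclear receptor gene NR4A3 (-0.93), while KLF6 (0.27), ZFP36L1 (0.22) and ZFP36L2 (0.31) rose. NR4A3 was low, at 0.303 to 3.03 CPM a well, and its sets overlapped. For JUN the difference was -0.13 in control wells (edgeR adjusted p = 0.409) and -0.66 in stretch wells (adjusted p = 2.64e-04). The interaction term was not called for it (adjusted p = 0.348). FOS measured 62.8, 80.8, 96.9 and 181 CPM in wells 1 and 2 and 114, 94.5, 154 and 142 CPM in wells 3 and 4. The highest single value was that of stretch replicate 2, and the log2 difference was 0.31 ± 0.242 (SE; adjusted p = 0.460). EGR1 gave -0.23 (adjusted p = 0.0801) and MYC 0.24 (adjusted p = 0.323). Without stretch replicate 2, 10 members were higher, FOS and MYC among them, and 1 was lower. The lower members numbered 2 without stretch replicate 3 and 1 without stretch replicate 4, and without control replicate 2 only 1 was higher. JUN lost its call without control replicate 4 or stretch replicate 2 or 4, and KLF6 without control replicate 1, 2 or 3 or stretch replicate 3 or 4.

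Of 21 YAP/TAZ members, 4 rose (19.0%) and 2 fell (9.52%, near the 8.54% of all genes). TEAD4, a DNA-binding partner of YAP, measured 61.1, 68.1, 63.9 and 70.9 CPM in wells 1 and 2 and 103, 94.4, 91.8 and 101 CPM in wells 3 and 4. All wells of the second set were above those of the first, with a log2 difference of 0.56 ± 0.0540 (SE; adjusted p = 3.97e-07). The classical targets CCN1 (0.24, adjusted p = 0.520) and CCN2 (-0.47, adjusted p = 0.106) had opposite signs and were not called. LATS2 (0.25), the kinase that restrains YAP, rose, and GADD45A (-0.27) and WWTR1 (-0.12), which encodes TAZ, fell. The 4 higher members became 2 without control replicate 1, 2 or 3, 1 without stretch replicate 1 and 7 without stretch replicate 4. The 2 lower became 1 without control replicate 2 or 4 or stretch replicate 1 or 3. LATS2 lost its call without stretch replicate 1, and WWTR1 without any 1 of 7 wells (not stretch replicate 4).

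Of 24 SRF/MRTF and actomyosin members, 9 rose (37.5%, against 9.83%), 0 fell and 15 were not called. FHL2, a LIM-domain protein of actin structures, measured 133, 123, 138 and 155 CPM in wells 1 and 2 and 183, 169.8, 189 and 179.9 CPM in wells 3 and 4. The sets did not overlap, with a log2 difference of 0.40 ± 0.0484 (SE; adjusted p = 6.19e-06). SRF itself (0.38), MRTFA (0.16), the focal-adhesion gene ZYX (0.27), the filamin gene FLNA (0.19), ACTG1 (0.21), CNN3 (0.24) and non-muscle myosin MYH9 (0.15) were among the others. ACTB (0.09), VCL (0.10) and TPM1 (-0.02) were among those not called.

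The TGF-beta, Wnt, Notch and NF-kB lists held 3 or 4 calls each. TGF-beta, BMP and activin genes had 3 higher members of 28 (10.7%, near the 9.83% of all genes): the ligand BMP7 (0.48), SMAD3 (0.26) and the ubiquitin ligase SMURF1 (0.24). The activin antagonist FST gave 0.75 (adjusted p = 0.0603). Without stretch replicate 2 or stretch replicate 4 the higher members numbered 7, and BMP7 lost its call without control replicate 2. Lower members numbered 0 in edgeR, also at an unadjusted p under 0.05, 0 in DESeq2 and limma-voom, and 1 without control replicate 1 and 2 without stretch replicate 3. Of 14 Wnt feedback genes 4 were higher (28.6%): AXIN2 (0.38), APCDD1 (0.33), TCF7 (0.21) and CCND2. They numbered 2 without control replicate 1 or stretch replicate 1, where APCDD1 and AXIN2 lost their calls. AXIN2 also lost it without control replicate 3 or stretch replicate 4, and 1 lower Wnt member appeared without stretch replicate 3.

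Receptors of the Notch family did not move together, since NOTCH1 (0.49) and NOTCH2 (0.15) rose and NOTCH3 (-0.60) fell. The other 12 of 15 Notch and Hedgehog members were not called. That gave 13.3% higher and 6.67% lower, near the 9.83% and 8.54% of all genes. NOTCH2 lost its call without control replicate 1 or stretch replicate 1, and NOTCH3 without stretch replicate 3. Of 19 NF-kB and cytokine genes 3 rose (15.8%, against 9.83% of all genes) and 1 fell (5.26%, against 8.54%). The higher were the feedback inhibitor genes TNFAIP3 (0.49) and NFKBIE (0.28) and the adhesion receptor gene ICAM1 (0.43), and the cytokine gene IL1A fell (-1.07, on 15 to 64 counts a well). ICAM1 was not called without stretch replicate 1, NFKBIE without control replicate 1, and IL1A without stretch replicate 1 or 3. The higher members numbered 5 without control replicate 3, and the lower 2 without control replicate 2.

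Of 28 tested interferon-stimulated genes 14 fell in wells 3 and 4 (50.0%, against 8.54% of all genes), with a median log2 difference of -0.26. By edgeR, DESeq2 and limma-voom 0 rose, and 2 were higher at an unadjusted p under 0.05 in edgeR. DDX58, the cytosolic RNA sensor RIG-I, measured 81.8, 78.3, 86.1 and 80.6 CPM in wells 1 and 2 and 59.2, 51.8, 46.8 and 52.2 CPM in wells 3 and 4. The wells of the second set were all lower, with a log2 difference of -0.64 ± 0.0589 (SE; adjusted p = 3.97e-07). OASL (-0.68), IFIT3 (-0.54), the partners PARP9 (-0.54) and DTX3L (-0.47), PARP14 (-0.47), IFI44L (-0.48), USP18 (-0.34) and the signalling factors STAT2 (-0.18) and IRF9 (-0.21) were among those that fell. MX1 (-0.23), ISG15 (-0.23) and OAS1 (-0.28) were not called. The number of lower members stayed between 12 and 17 when any single well was left out, and 1 higher member appeared without control replicate 4, stretch replicate 2 or stretch replicate 3. In stretch replicate 3 the median member lay 0.40 below its mean over the 8 wells, against 0.18 below in stretch replicate 4, 0.07 below in control replicate 4 and 0.04 above in control replicate 3.

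**Figure D3:**
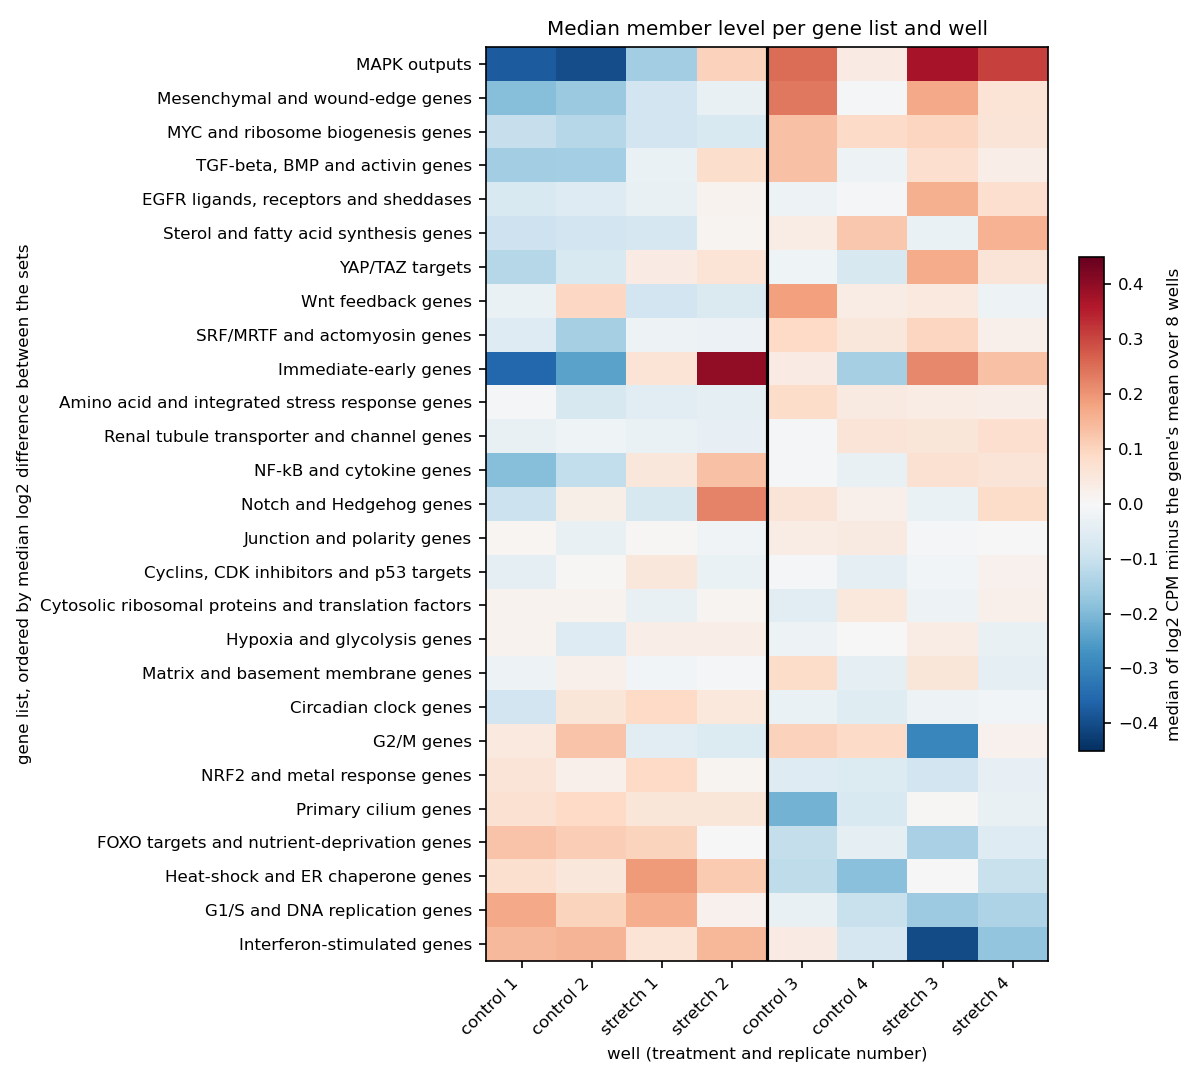
Rows are the 27 gene lists of growth, signalling and epithelial state and columns are the 8 wells, and colour gives the median over tested members of log2 CPM minus the gene's mean over the 8 wells. G1/S genes are above 0 in the 4 wells on the left of the line and below it in the 4 on the right. MAPK outputs are below 0 in wells 1 and 2 except stretch replicate 2 and above it in wells 3 and 4, interferon-stimulated genes are above 0 in wells 1 and 2 and below it in wells 3 and 4 except control replicate 3, while ribosomal proteins stay near 0 and stretch replicate 2 stands out among wells 1 and 2 for the immediate-early genes.

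Of 38 G1/S and DNA replication members 27 fell (71.1%, against 8.54%) and 0 rose, also at an unadjusted p under 0.05 in edgeR and by DESeq2 and limma-voom, with a median of -0.24. MCM5, a subunit of the replicative helicase, measured 181, 160.3, 180.2 and 157 CPM in wells 1 and 2 and 138, 139.5, 123 and 126 CPM in wells 3 and 4. The 4 wells of the second set were below the 4 of the first, with a log2 difference of -0.36 ± 0.0509 (SE; adjusted p = 3.53e-05). E2F1 (-0.34), E2F2 (-0.53), the repressor E2F7 (-0.46), cyclin E2 (CCNE2, -0.50), the clamp gene PCNA (-0.35), the ligase LIG1 (-0.37), POLA1 (-0.38), CDC45 (-0.38) and MCM4 (-0.29) fell, and CCNE1 (0.07), CDT1 (-0.04) and ORC1 (0.01) were not called. The lower members numbered 21 to 26 when any single well was left out, and 13 without both wells of replicate 1.

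Of 46 G2/M members 4 fell (8.70%, near the 8.54% of all genes) and 1 rose (2.17%). Those that fell were the mitotic kinases AURKB (-0.29) and TTK (-0.23), the motor KIF11 (-0.19) and the shugoshin SGO2 (-0.20), and the phosphatase CDC25B rose (0.28). MKI67, the proliferation marker Ki-67, measured 587, 639, 558 and 515 CPM in wells 1 and 2 and 579, 628, 445 and 592 CPM in wells 3 and 4. The sets overlapped, with stretch replicate 3 lowest, and the log2 difference was -0.04 ± 0.0861 (SE; adjusted p = 0.830). Cyclin B1 (CCNB1) gave 0.10 (adjusted p = 0.662). Counts of lower members moved with single wells: 2 without control replicate 1, 3 or 4 or stretch replicate 3, and 12 without stretch replicate 4. Higher members numbered 7 without stretch replicate 3, CCNB1 among them, and 2 without stretch replicate 1. KIF11 lost its call without any 1 of 6 wells (not stretch replicate 2 or 4).

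D-type cyclins, which couple growth signals to the cell cycle, moved against the replication genes. CCND2 (chromosome 27, 5499635 to 5529695) measured 169.5, 187, 191 and 216 CPM in wells 1 and 2 and 279, 255, 300.0 and 281 CPM in wells 3 and 4. Within wells 1 and 2 it was highest in stretch replicate 2, still below all of wells 3 and 4, and the log2 difference was 0.55 ± 0.0485 (SE; adjusted p = 2.96e-07). CCND1 and CCND3 (0.17) rose too. Their partner CDK4 (-0.19), CDK2 (-0.19), the inhibitor CDKN2C (-0.34) and RB1 (-0.19) fell, and CDKN1A (0.02, adjusted p = 0.967) and CDKN1B (-0.09, adjusted p = 0.371) were not called. In all, 5 of 33 members of the cyclin, CDK inhibitor and p53 list rose (15.2%) and 8 fell (24.2%), among the latter BBC3 and TP53INP1 (-0.87). The higher numbered 2 without control replicate 1 and 3 without stretch replicate 1 or 3, and the lower 5 without control replicate 1, 2 or 4 or stretch replicate 1.

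Of 36 MYC and ribosome biogenesis members 21 rose (58.3%, against 9.83%) and 3 fell (8.33%), with a median of 0.24. NOP2, a methyltransferase of ribosomal RNA, measured 56.3, 56.5, 57.2 and 63.6 CPM in wells 1 and 2 and 80.7, 78.1, 78.2 and 78.4 CPM in wells 3 and 4. The sets were far apart relative to their spread, with a log2 difference of 0.43 ± 0.0502 (SE; adjusted p = 2.76e-06). RRS1 (0.56), RRP9 (0.42), the RNA polymerase I subunit POLR1B (0.41), the snoRNP proteins NOP56 (0.38), NOP58 (0.38) and DKC1 (0.39), and GNL3 (0.39) also rose. MXD4 (-0.42), a MYC antagonist, PES1 (-0.13) and ODC1 (-0.12) fell. NPM1 (-0.02), NCL (-0.02) and FBL (-0.06) were not called. The higher members numbered 19 to 21 when any single well was left out, and the lower 1 without control replicate 1, 2 or 3 or stretch replicate 1 or 4.

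Of 37 genes for cytosolic ribosomal proteins and translation factors, which form the finished ribosome and serve it, 0 were called in either direction by edgeR, DESeq2 or limma-voom, and 0 had an unadjusted p under 0.05 in edgeR, with log2 differences from -0.07 (RPS15) to 0.06 (RPLP0). RPLP0 measured 1189.9, 1232, 1175 and 1228 CPM in wells 1 and 2 and 1216, 1297, 1235 and 1269 CPM in wells 3 and 4. The sets overlapped, and the log2 difference was 0.06 ± 0.0394 (SE; adjusted p = 0.348).

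Of 31 sterol and fatty acid members 12 rose (38.7%) and 2 fell. HMGCS1, an early enzyme of cholesterol synthesis, measured 224, 236, 225 and 264 CPM in wells 1 and 2 and 298, 309, 294 and 345 CPM in wells 3 and 4. Stretch replicate 2 was the highest of the first set and still below the second, with a log2 difference of 0.39 ± 0.0535 (SE; adjusted p = 6.26e-05). The sterol enzymes CYP51A1 (0.32) and SQLE (0.27) and the fatty acid enzymes FASN (0.27), ACLY (0.25) and ELOVL6 (0.32) rose, while SREBF1 (-0.19) and PMVK (-0.41) fell, and INSIG1 (0.04) and IDI1 (-0.01) were not called. Of the lower pair, 1 was called without stretch replicate 1 or 4.

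Among 31 amino acid and integrated stress response genes 9 rose (29.0%) and 4 fell. The amino acid transporter gene SLC7A5 measured 109, 111, 115 and 129.7 CPM in wells 1 and 2 and 181, 163, 152 and 154 CPM in wells 3 and 4. It was higher in all wells of the second set, with a log2 difference of 0.48 ± 0.0644 (SE; adjusted p = 0.000157). Its partner SLC3A2 (0.35), the arginine transporter gene SLC7A1 (0.38) and the folate enzyme MTHFD2 (0.32) rose. The stress factor DDIT3 (CHOP, -0.40) and SESN2 (-0.34) fell, and ATF4 (0.08) and ASNS (0.12) were not called. The lower numbered 2 without stretch replicate 1.

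Of 34 hypoxia and glycolysis genes 5 rose (14.7%, against 9.83% of all genes) and 4 fell (11.8%, against 8.54%). The glucose transporter gene SLC2A1 (0.30), the hexokinase HK2 (0.55), PFKFB3 (0.49), NDRG1 (0.39) and VEGFA (0.32) rose, whereas ADM, P4HA1 (-0.27), ENO2 (-0.28) and BNIP3L (-0.20) fell. CA9 (-0.16), PGK1 (0.02) and LDHA (0.04), hypoxia-induced genes too, were not called. VEGFA lost its call without control replicate 1, 2 or 3 or stretch replicate 1 or 3.

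FOXO target and nutrient-deprivation genes were lower in 11 of 22 members (50.0%) and higher in 1, ARRDC3 (0.34). PDK4 (-0.69), which spares glucose, PIK3IP1 (-0.82), a PI3K inhibitor, TXNIP (-0.48), which limits glucose uptake, CCNG2 (-0.52), SESN3 (-0.23) and the autophagy receptor gene SQSTM1 (-0.23) fell. TXNIP measured 901, 888, 816 and 622 CPM in wells 1 and 2 and 564, 654, 569 and 515 CPM in wells 3 and 4. Stretch replicate 2 was below control replicate 4, so the sets overlapped although the gene was called, with a log2 difference of -0.48 ± 0.0975 (SE; adjusted p = 0.0175). It was lost without control replicate 2 or stretch replicate 4. The lower members numbered 5 without control replicate 2 or stretch replicate 1 and 7 without control replicate 1, 3 or 4 or stretch replicate 3 or 4.

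Chaperone genes fell in 14 of 27 members (51.9%), and 2 rose. CALR, a calcium-binding chaperone of the endoplasmic reticulum, measured 1114, 1015, 1154 and 1063 CPM in wells 1 and 2 and 860.1, 811, 961 and 829 CPM in wells 3 and 4. No well of the second set reached the first, with a log2 difference of -0.33 ± 0.0481 (SE; adjusted p = 6.42e-05). HSP90B1 (-0.27), the XBP1 transcript (-0.27), HERPUD1 (-0.64), MANF (-0.41), cytosolic HSP90AA1 (-0.27) and HSPB8 (-0.54) fell. HSPA8 (0.35) and DNAJB1 (0.22) rose, and the main ER chaperone HSPA5 gave -0.42 (adjusted p = 0.0655). The 2 higher members became 1 without control replicate 1 or 3.

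NRF2 and metal response genes fell in 10 of 29 members (34.5%) and rose in 2. With OSGIN1 and HMOX1, the glutathione synthesis genes GCLC (-0.55) and GCLM (-0.34), TXNRD1 (-0.31), GSR (-0.25), SRXN1 (-0.25) and KEAP1 (-0.21), the inhibitor of NRF2, fell, while NQO1 (-0.10), TXN (-0.09) and NFE2L2 (-0.11), which encodes NRF2, were not called. The transporter gene ABCC3 (0.29) and MTF1 (0.23) rose, and 1 of the 2 was called without stretch replicate 1.

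**Figure D4:**
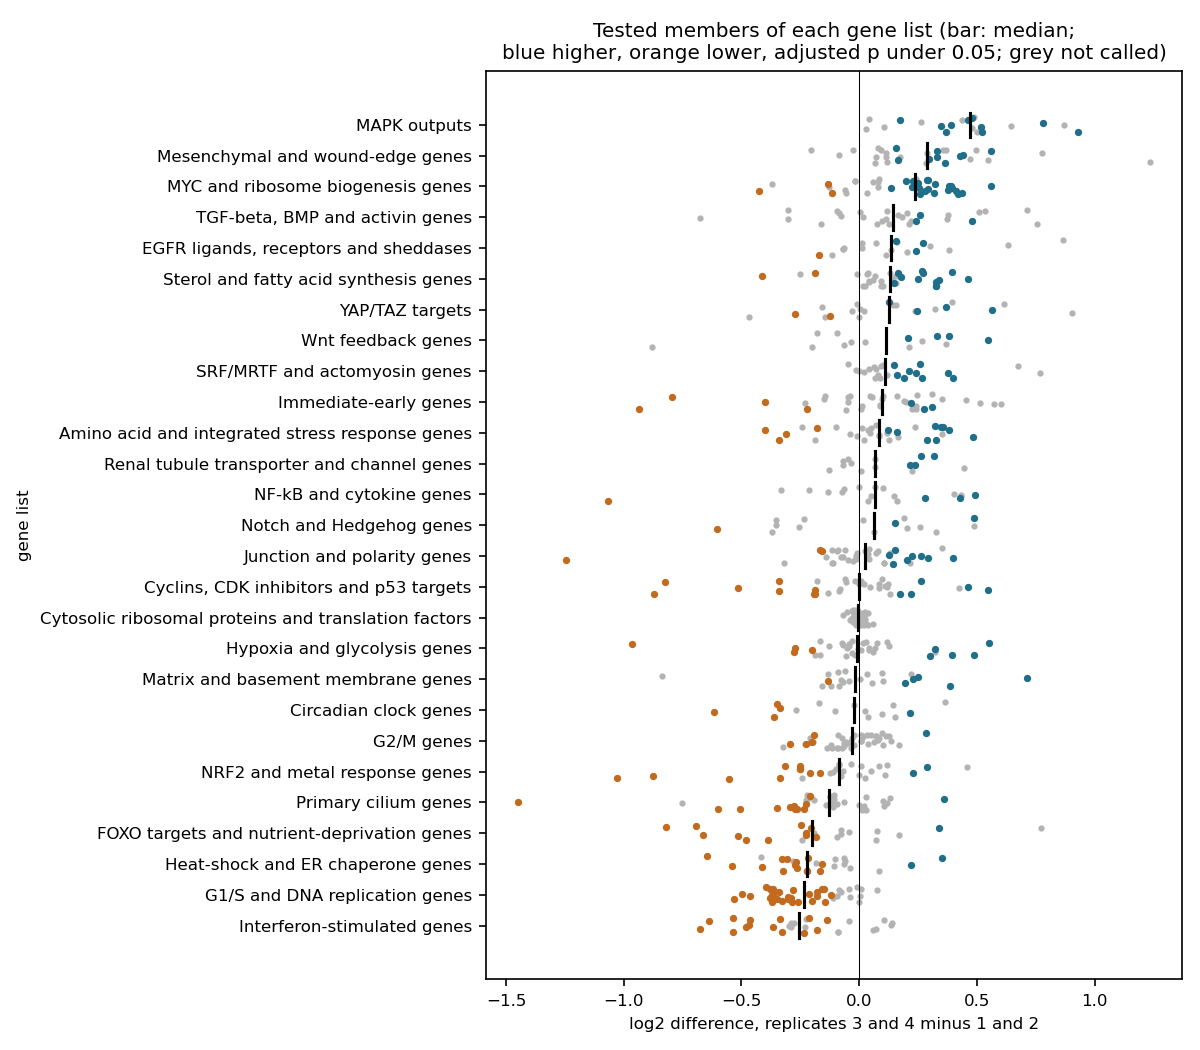
Each point is a tested member of a gene list (y axis) at its log2 difference between the sets (x axis), blue where higher and orange where lower at an adjusted p under 0.05, grey where not called, with the list's median as a bar. G1/S genes (27 of 38 lower) and ribosome biogenesis genes (21 of 36 higher) lie mostly to opposite sides of 0, with 3 and 9 members on the other side, and the 37 ribosomal protein and translation factor genes lie within 0.07 of it.

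Of 29 mesenchymal and wound-edge members 9 rose (31.0%, against 9.83% of all genes), 0 fell and 20 were not called. ITGA2, the collagen-binding integrin chain, measured 499, 542, 499 and 516 CPM in wells 1 and 2 and 731, 659, 674 and 725 CPM in wells 3 and 4. The sets did not overlap, with a log2 difference of 0.44 ± 0.0437 (SE; adjusted p = 4.76e-07). ITGB4 (0.36), ITGA3 (0.30), the laminin-332 chains LAMB3 (0.43) and LAMA3 (0.33), CD44 (0.33), fibronectin (FN1, 0.56), VIM (0.16) and KRT19 (0.16) were called. The mesenchymal factors SNAI2 (0.37) and ZEB1 (0.36) were not. Without control replicate 2 the higher members numbered 5.

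Among 37 junction and polarity genes 8 rose (21.6%) and 3 fell. The desmosomal genes DSC2 (0.29), DSG2 (0.22), PKP2 (0.14), PKP3 (0.26) and JUP (0.12) and the claudin gene CLDN16 (0.40) rose, and CLDN8 (-1.25), MARVELD2 (-0.16) and CGN (-0.16) fell. E-cadherin (CDH1, 0.02), TJP1 (-0.03) and OCLN (-0.12) were not called. The higher numbered 4 without control replicate 1, 3 without control replicate 2 and 5 without stretch replicate 1. The lower numbered 0 without control replicate 2 or 3 or stretch replicate 1, and 1 without stretch replicate 3. DSG2 and PKP3 lost their calls without control replicate 2. Of 22 matrix genes 5 rose (22.7%), TIMP1 (0.71), COL4A1 (0.39), HSPG2 (0.25), COL17A1 (0.23) and LAMA5 (0.19), and LOXL1 fell (-0.13). LOXL1 was the only lower matrix member, and none was called without control replicate 1, 2 or 4 or stretch replicate 1 or 2.

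Primary cilium genes were lower in 11 of 40 members (27.5%, against 8.54%) and higher in 1, the polycystin gene PKD1 (0.36). The intraflagellar transport gene IFT81 measured 12.6, 12.9, 11.9 and 11.5 CPM in wells 1 and 2 and 7.07, 8.31, 7.88 and 8.96 CPM in wells 3 and 4. The wells of the second set were all lower, with a log2 difference of -0.60 ± 0.100 (SE; adjusted p = 0.000181). IFT74 (-0.28), its partner in the IFT-B complex, IFT46 (-0.27), WDR19 (-0.35), the BBSome genes BBS7 (-0.51), BBS9 (-0.27) and BBS2 (-0.24), and the ciliary transcription factor gene RFX2 (-1.45) fell, and IFT88 (-0.19) and PKD2 (0.01) were not called. The lower numbered 9 to 12 when any single well was left out.

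The division was seen in control wells alone and in stretch wells alone, with fewer calls in the latter. Both subsets are part of the wells in which it was first noticed. Their shared signs thus describe the division and do not establish it. Between control replicates 3 and 4 and control replicates 1 and 2, 1482 of the 14456 genes tested in both subsets were called, and between the stretch wells 637 (edgeR, 2 wells against 2). The 382 genes called in both were 25.8% of the first and 60.0% of the second, and 381 of them had the same direction. Of the genes called in control wells 95.0% had the same sign in stretch wells, beside 69.9% of all genes. Across all these genes, which are not independent replicates, the differences were weakly to moderately related (Pearson's r 0.396, Spearman's rho 0.490), which is given as a description. The median MAPK output difference was 0.65 in control and 0.32 in stretch wells, that of G1/S genes -0.21 and -0.24, and that of interferon-stimulated genes -0.15 and -0.39.

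**Figure D5:**
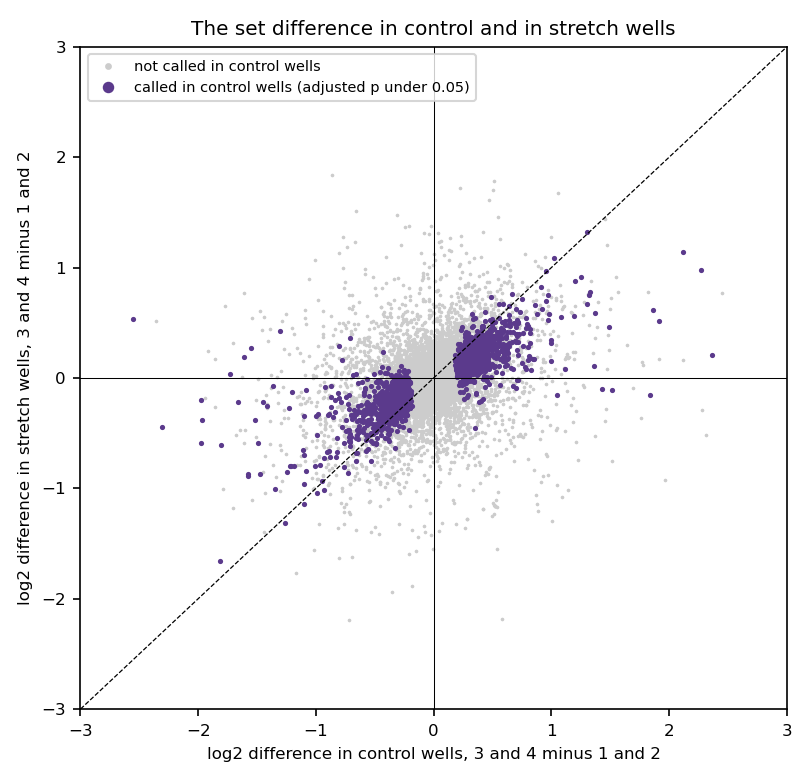
Each point is a gene tested in both subsets, with its log2 difference between the sets in control wells (x axis) and in stretch wells (y axis). The purple points, the genes called in control wells, lie mostly in the quadrants of equal sign (95.0%), the dashed line marks equal differences, and 1 gene lies outside the axis range of 3 log2 units.

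A test of whether the set difference depended on stretch called 0 of 15087 genes (0%) with edgeR's interaction term, where 867 had an unadjusted p under 0.05 and the smallest adjusted p was 0.163. DESeq2 also called 0, with 585 at an unadjusted p under 0.05, and limma-voom called 7. The edgeR interaction term called 55 genes without control replicate 4, 8 without control replicate 2 and 1 without stretch replicate 4. The lower number of calls in stretch wells is therefore not shown to be a difference of the set effect between treatments.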

How the data were processed

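RNA of 8 wells of MDCK GII cells, 4 control and 4 stretched, was read with a stranded poly(A) kit, per the labels' protocols. The authors deposited 1 table of raw counts over exons for 37952 genes. FastQC 0.11.8, Trim Galore 0.6.5, STAR 2.7.3a and featureCounts are named in the submitters' processing notes. The genome build and the strand setting of the counting are not given in the sources used here. Symbols matched RefSeq's table for UU_Cfam_GSD_1.0 for 37291 genes, all with identical start and end, and coordinates are those of the deposited table.

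Counts were filtered (filterByExpr, minimum count 10), scaled by TMM and fitted with edgeR 4.0.16 (robust quasi-likelihood) under R 4.3.3, with a term for stretch and one for the set of wells, and p-values were adjusted over all tested genes (Benjamini-Hochberg). A second model added their interaction. Levels are TMM-scaled CPM. The fit was tested on simulated data for this comparison, with 14804 genes. It recovered 54.4% of genes changed by 0.3 on the log2 scale, 78.8% by 0.6 and 92.4% by 1, and called 10 unchanged genes. The simulated wells had no stretch effect, no well between the sets and fewer changed genes, so these shares may not carry over. DESeq2 1.42.0 and limma-voom (limma 3.58.1), other scalings and filters, length offsets (loess span 0.5), a replicate block, summed wells, each treatment alone and the omission of each well or replicate number were alternatives. The comparison and the 31 gene lists were chosen with earlier results of these data known. Genes were named by rule: the 10 largest rises and falls with a symbol, at least 5 CPM in the higher set and sets that do not overlap, the 4 members of each list with the smallest p, and a list of 22 signalling and growth genes, of which AREG was not tested. That made 143 genes, 123 of them called; some list members are not reported here by name or value. Other list members named in the text, and the genes lost or gained without a well, were chosen after their values were seen. Wells of 1 treatment within a set differed by more than sampling noise (chi-square per degree of freedom 5.56 to 8.88), so all were kept as separate wells. Figures used matplotlib 3.10.9.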

Additional observations from a re-analysis of the deposited data

Results flagged for a closer look

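Of 302 groups of 4 wells examined (a gene or library measure in one set), 16 held a well set apart from the other 3, where chance alone gives about 15.1. Each case below is a single well far from a tight group, with no explanation weighed.

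In wells 1 and 2, stretch replicate 2 stood above the other 3 wells for 3 growth, clotting or channel genes. It held 63.6 CPM of NOP2 (others 56.3 to 57.2), 5.73 CPM of TFPI2 (others 4.47 to 4.64) and 81.0 CPM of TRPV4 (others 66.3 to 68.4), in each case towards wells 3 and 4. Control replicate 2 was apart for PARP14 at 83.5 CPM (others 67.2 to 69.4) and SESN3 at 67.5 CPM (others 60.0 to 61.3).

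In wells 3 and 4, control replicate 3 was apart for NOP2 at 80.7 CPM (others 78.1 to 78.4) and NOP56 at 125 CPM (others 118 to 119). Control replicate 4 was low for CEMIP at 6.94 CPM (others 10.7 to 11), FILIP1L at 3.52 CPM (others 4.34 to 4.47) and NRG1 at 94.8 CPM (others 110 to 113). Stretch replicate 3 was low for CCNB1 at 153 CPM (others 225 to 238) and high for HSPB8 at 26.4 CPM (others 21.8 to 22.4).

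Among library measures, the 10 most abundant genes took 5.08% of counts in control replicate 1 (others of its set 4.90 to 4.92%) and 4.59% in control replicate 3 (others 4.75 to 4.77%). The longest of the 3 length classes of genes took 31.8% in control replicate 2 (others 31.3 to 31.4%). Kidney epithelium markers summed to 5416 CPM in control replicate 2 (others 5714 to 5732 CPM).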

How the results depend on the processing

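The count of 2719 genes was within 1.5 times under the other tests, scalings, filters, length offsets, summed wells and a fit with no stretch term (2417 to 3053). It was 1488 in control wells only, 637 in stretch wells only and 228 with at least 1.5-fold, subsets and rules with fewer wells or a further criterion. Leaving out wells or whole replicate numbers gave 777 to 2836. The share of higher genes among those called was 53.5%, and 47.7% with upper-quartile factors. The interaction count of 0 became 7 with limma-voom and 40 with no filter, and 0 to 55 when a well was left out; the cause was not tested. Counts of list members that moved by over 1.5 times under another tool, filter or model included EGFR genes (3 higher, 6 with DESeq2 or limma-voom and 7 with no filter), TGF-beta genes (3 higher, 6 with limma-voom and 9 with no filter), YAP/TAZ genes (4 higher, 1 with no stretch term) and FOXO genes (11 lower, 5 with no stretch term). With a replicate block of 4 numbers 2922 genes were called, 2623 of them shared, and EGFR and YAP/TAZ genes each had 7 higher members. Of the 143 named genes 9 gained a call with the block. Among them were DUSP6 (adjusted p = 6.41e-04, edgeR), EPHA2 (0.0148), EREG (0.0310), FST (9.90e-07), EGR1, MYC, HBEGF and CCN2. JUN (0.0690) and DSG2 (0.0616) lost theirs. When same-numbered wells were summed instead, only 2 of the 143 gained a call and 4 lost theirs. Same-numbered wells correlated at 0.309, 0.0965, 0.175 and 0.142 in their deviations, and only 1 of 4 control wells and 2 of 4 stretch wells correlated best with their own number, so the numbers were not taken as pairs.

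Most of the 123 called named genes were picked for a small p or separated wells in these same counts, which favours stable signs. Of these 123 genes 0 changed sign in any alternative run. Signs of uncalled genes did: CDKN1A, 0.02 in the report, gave -0.012 with limma-voom, -0.011 with the replicate block and -0.089 in stretch wells only, and without single wells or numbers -0.31 to 0.29. The corresponding ranges were -0.0034 to 0.53 for CCN1, -0.057 to 0.23 for CCNB1, -0.0016 to 0.44 for HBEGF and -0.17 to 0.088 for MKI67; the cause was not tested. The model left 5 residual degrees of freedom, and SPRY4, IL1A and NR4A3 rested on few counts.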

Other observations

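Of 15 tested circadian clock genes 4 were lower in wells 3 and 4 (26.7%, against 8.54% of all genes) and 1 higher (6.67%, against 9.83%). The lower were the repressors CRY2 (-0.62) and NR1D2 (-0.33) and the bZIP factors NFIL3 (-0.36) and TEF (-0.35), as log2 differences, and the higher was CLOCK (0.21). CRY2 measured 10.6, 9.32, 9.75 and 8.61 CPM in wells 1 and 2 and 5.15, 7.10, 6.26 and 6.45 CPM in wells 3 and 4, with no overlap (edgeR adjusted p = 0.000642). PER1 (0.10), PER2 (-0.10), DBP (0.02) and ARNTL (0.14), which encodes BMAL1, were not called. CLOCK lost its call without control replicate 3 or stretch replicate 1 or 3.

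Of 14 tested renal transporter and channel genes 4 were higher (28.6%, against 9.83%) in edgeR's test, and 0 were lower, also at an unadjusted p under 0.05 and by DESeq2 and limma-voom. They were PIEZO1 (0.22), a mechanically gated cation channel, TRPV4 (0.32), a calcium channel sensitive to cell swelling, the sodium-potassium-chloride cotransporter gene SLC12A2 (0.26) and the potassium channel gene KCNJ16 (0.24). PIEZO1 measured 167, 171, 169 and 164 CPM in wells 1 and 2 and 200.2, 193, 197 and 189 CPM in wells 3 and 4, and the 4 wells of the second set were above the 4 of the first (adjusted p = 0.000625). The sodium pump subunit gene ATP1B1 (-0.03) was not called. KCNJ16 lost its call without any 1 of 6 wells (not stretch replicate 1 or 3), with upper-quartile factors and with length offsets.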
